A study of Homo sapiens with 12 samples.

Results

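H3K27ac at CD40 and 6 genes of the NF-kB response was followed across 6 clones of SUDHL4, a cell line from a diffuse large B-cell lymphoma of germinal-centre type. The genes were CD40, NFKBIA, TNFAIP3, TRAF1, NFKB2, BIRC3 and ICAM1. Each gene was given a fixed window of the hg19 genome, and every peak inside a window was taken as a member, whatever its height or its change. The 7 windows held 203 of the 235688 peaks in the 6 lists, which fell into 37 of the 48876 regions obtained by joining peaks that share a base.

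H3K27ac is the acetylated form of lysine 27 on histone H3, a mark of active promoters and enhancers, and it was mapped by chromatin immunoprecipitation and sequencing. CREBBP and EP300 are paralogous acetyltransferases that write this mark, and the series asks how the mark differs when either is missing. The WT group was 2 control clones edited with CRISPR/Cas9 at PPP1R12C, both shown by western blot to express CREBBP and EP300. The CREBBP-KO group was 2 clones in which CREBBP had been disrupted with guides against exons 15 and 20. The EP300-KO group was 2 clones in which EP300 had been disrupted with guides against exons 17 and 24. All 6 were single-cell clones of 1 line, grown in the same medium with no CD40 ligand or other stimulus named in the labels, and no clone lacked both enzymes. For CREBBP-KO clone 1, title and protocol name different exons, and the exon given here is from the protocol. Each of the 6 immunoprecipitated libraries had its own input library, which entered only through the peak lists. The lists held 35054 to 46940 peaks and covered 26.1 to 35.1 Mb, with both EP300-KO lists the shortest, and the depth of the libraries is unknown. The B-cell markers MS4A1, CD79A, CD79B and CD22 were covered in all 6 clones, and CD8A, CD2, CSF1R and ALB, markers of other cell types, had no peak in any clone. The windows of CD3E, CD14 and LYZ did hold peaks in all 6 clones.

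CD40 is a receptor of the TNF receptor family on B cells, and its ligand on helper T cells drives signals that a germinal-centre B cell needs to survive and leave the germinal centre. The receptor binds TRAF adaptors, which lead to the release of NF-kB, a family of dimeric transcription factors. TRAF1 is such an adaptor, BIRC3 a ubiquitin ligase that works with TRAF proteins, and NFKB2 the precursor of an NF-kB subunit of the non-canonical branch. NFKBIA holds NF-kB in the cytoplasm and TNFAIP3 edits ubiquitin chains to end the signal, and both are induced by NF-kB itself. ICAM1 is an adhesion molecule that activated B cells place on their surface.

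NF-kB binds a short DNA element, the kappa B consensus, and 4 stretches of promoter are printed here because each of the 7 genes had an H3K27ac region within 1000 bases of its start. The sequences are from RefSeq on GRCh38.p14, each the 250 bases before a gene start, written 5′ to 3′ on the strand of the gene. Capitals mark matches to the kappa B consensus on either strand. The RefSeq promoter table matched 6 of the 7 genes, all but CD40. Peak positions are on hg19, and no position was converted between the builds. TNFAIP3 has matches 67 to 58 and 55 to 46 bases before its start (chr6:137867009-137867258, plus strand). BIRC3 has matches 199 to 190 and 135 to 126 bases before its start (chr11:102317234-102317483, plus strand). NFKBIA has 1 match, 81 to 72 bases before its start (chr14:35404750-35404999, minus strand). TRAF1, at the first of its 3 listed starts, has none (chr9:120929172-120929421, minus strand).
TNFAIP3: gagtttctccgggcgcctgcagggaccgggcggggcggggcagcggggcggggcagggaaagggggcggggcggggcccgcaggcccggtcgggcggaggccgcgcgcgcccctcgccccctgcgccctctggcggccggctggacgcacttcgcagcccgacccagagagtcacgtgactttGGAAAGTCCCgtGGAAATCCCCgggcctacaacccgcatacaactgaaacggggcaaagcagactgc
BIRC3: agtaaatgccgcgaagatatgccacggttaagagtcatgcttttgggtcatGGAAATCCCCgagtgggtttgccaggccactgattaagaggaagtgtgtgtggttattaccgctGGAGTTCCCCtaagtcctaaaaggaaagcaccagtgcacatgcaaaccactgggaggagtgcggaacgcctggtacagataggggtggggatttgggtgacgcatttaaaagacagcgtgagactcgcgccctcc
NFKBIA: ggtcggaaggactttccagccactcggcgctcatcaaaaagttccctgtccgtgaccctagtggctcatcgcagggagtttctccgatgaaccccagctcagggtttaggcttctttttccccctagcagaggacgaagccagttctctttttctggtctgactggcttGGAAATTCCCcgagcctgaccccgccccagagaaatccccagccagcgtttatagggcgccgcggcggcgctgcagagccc
TRAF1: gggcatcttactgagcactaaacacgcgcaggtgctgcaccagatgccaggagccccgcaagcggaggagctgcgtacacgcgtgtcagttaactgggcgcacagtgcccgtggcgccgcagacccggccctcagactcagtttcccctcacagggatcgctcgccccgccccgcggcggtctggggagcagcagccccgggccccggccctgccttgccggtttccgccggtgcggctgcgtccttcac

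Of the 6 genes in the promoter table, 4 had a kappa B match before at least 1 start. These were TNFAIP3, BIRC3, NFKBIA and also NFKB2, whose matches lie before the last 2 of its 3 listed starts and in part overlap each other. ICAM1 and TRAF1 had no match in these windows. Over all 35116 promoter windows of this length, 9.96% held a match. That share is per window, while the 4 of 6 is per gene with up to 3 windows each, so the 2 cannot be compared. A match is a description of the letters and no evidence of binding.

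The H3K27ac regions stood on either side of the matched stretch at TNFAIP3 and BIRC3. Distances are in kb from the gene start, positive in the direction of transcription, with hg19 starts rounded to 100 bases. At TNFAIP3 the regions ran from -0.542 to -0.295 kb and from 0.069 to 0.397 kb, so that no clone had a peak over the stretch that holds both matches. At BIRC3 they ran from -0.445 to -0.238 kb and from 0.01 to 0.846 kb, again with no peak in between. The edge at -0.238 kb is close to the match 199 to 190 bases before the start, and rounded starts do not settle whether they meet. At NFKBIA a region from -0.406 to -0.015 kb had a peak in all 6 clones. The end of that peak ran from -0.071 kb in CREBBP-KO clone 1 to -0.016 kb in CREBBP-KO clone 2. In all clones but the latter it was too close to the match for rounded starts to show whether the match was covered.

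The amount of acetylated sequence differed widely among the 7 genes and was furthest below WT in EP300-KO, relative to its error, at TRAF1. Covered bases are the bases of a window that lie under a peak of a clone. The TRAF1 window held 23.5 ± 0.245 kb of covered sequence in WT (mean ± SD, n = 2). In CREBBP-KO it held 23.5 ± 2.87 kb, and in EP300-KO it held 14.4 ± 1.24 kb. BIRC3 held 3.69 ± 1.02, 1.76 ± 0.452 and 1.88 ± 0.202 kb in WT, CREBBP-KO and EP300-KO. CD40, ICAM1 and NFKB2 held 3.09 ± 0.234, 2.96 ± 0.402 and 1.24 ± 0.123 kb in WT. NFKBIA and TNFAIP3, the negative regulators, had the least, with 0.907 ± 0.0247 and 0.465 ± 0.156 kb in WT. In the order of WT levels, the values of BIRC3, CD40 and ICAM1 overlapped from neighbour to neighbour. TRAF1 stood above all other genes in every clone, and NFKB2, NFKBIA and TNFAIP3 did not overlap in WT. Windows differ in length, from 25 kb for NFKB2 and ICAM1 to 100 kb for TNFAIP3, so this order is one of covered sequence and not of expression.

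**Figure D1:**
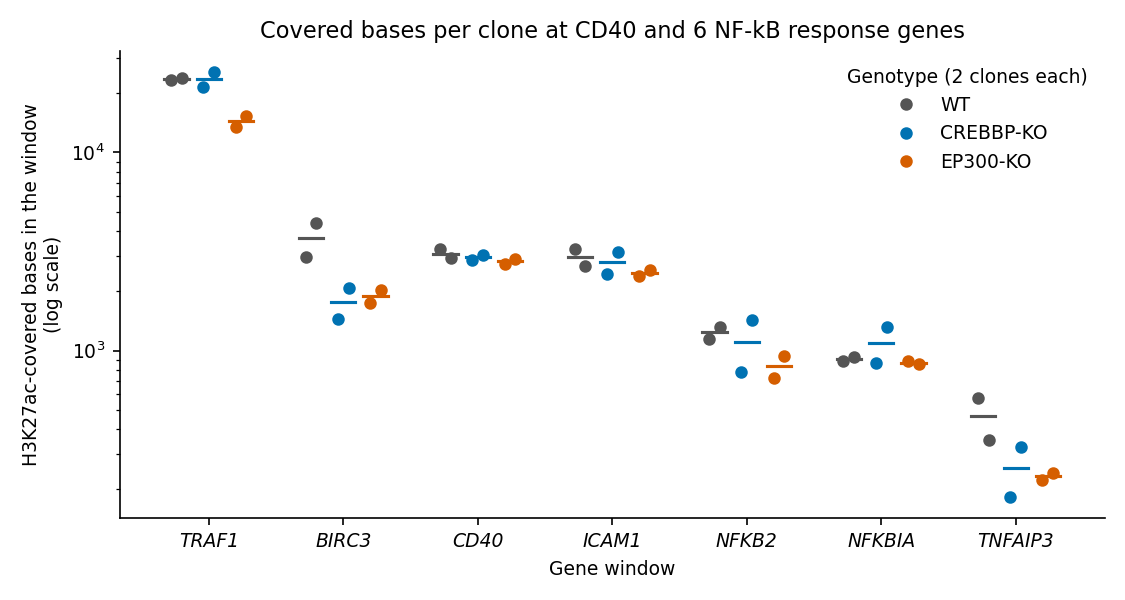
Covered bases (log axis) in the 7 gene windows; each point is 1 clone, each line the mean of the 2 clones of a genotype. At TRAF1 the EP300-KO clones (13485 and 15242 bases) lie below the other 4 clones (21445 to 25501 bases), and at BIRC3 all 4 knock-out clones (1439 to 2078 bases) lie below the WT clones (2970 and 4410 bases).

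In covered bases, the higher EP300-KO clone was lower than the lower WT clone at 7 of 7 genes. Across the genome the same was true of 50.9% of windows, so a low EP300-KO value is common in these lists. The same held for CREBBP-KO at 2 of the 7, TNFAIP3 and BIRC3, where it held in 19.5% of windows. TNFAIP3 had too few covered bases to be among those windows, and over the other genes the counts were 6 of 6 for EP300-KO and 1 of 6 for CREBBP-KO. With 2 clones against 2, an exact two-sided permutation test of 1 gene cannot go below p = 0.333.

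To take the shorter EP300-KO lists into account, log2(covered bases + 100) was centred on the median of each clone and compared with limma over 10874 windows. A window entered if 2 or more clones had at least 500 covered bases in it, and a Benjamini-Hochberg adjusted p under 0.05 was called. Of the 7 genes, 6 could be tested, and TNFAIP3 had too few covered bases. At the level of the whole window, 0 of 6 passed in CREBBP-KO against WT, where 0.34% of all windows did. The count was 0 of 6 in EP300-KO against WT, where 4.97% of windows passed, and 0 of 6 in CREBBP-KO against EP300-KO, where 7.27% did. At an unadjusted p under 0.05 the counts among all windows were 1241, 2609 and 2914. The median log2 difference of the 6 genes was -0.18 in EP300-KO against WT, beside 0.03 over all windows, and 0.01 in CREBBP-KO against WT, beside 0.02. Without centring, the median over all windows in EP300-KO against WT moves from 0.03 to -0.17, and every log2 difference below is relative to the clone median.

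TRAF1 gave the lowest p of the 6 in EP300-KO. The WT clones had 23318 and 23665 covered bases, those of CREBBP-KO 21445 and 25501, and those of EP300-KO 13485 and 15242. The EP300-KO clones were apart from the other 4, which overlapped, and the EP300-KO mean was 61.1% of the WT mean. The log2 difference of EP300-KO from WT was -0.50 (SE 0.12, limma adjusted p = 0.094) and that of CREBBP-KO was 0.07 (SE 0.12, adjusted p = 0.85). CREBBP-KO exceeded EP300-KO by 0.57 (SE 0.12, adjusted p = 0.060). None of these passed the threshold, and the adjusted p for EP300-KO ran from 0.026 to 0.40 over 15 alternatives, of which 1 passed.

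Within the TRAF1 window the loss was uneven, and 3 of its regions passed the test. The fit on single regions covered 19860 regions of the genome, 17 of them in the 7 windows and 10 of those at TRAF1. The filter was that of the windows, so a region empty in EP300-KO entered only through the other clones. In EP300-KO against WT, 3 of the 17 fell and 0 rose, where 6.39% of all tested regions passed in either direction. In CREBBP-KO against WT, 0 of 17 passed, where 0.292% of all did, with 1693 regions at an unadjusted p under 0.05. In CREBBP-KO against EP300-KO, 3 of the 17 were higher in CREBBP-KO and 0 lower, where 7.53% of all passed. The median over the 17 was -0.22 in EP300-KO against WT, beside 0.06 over all regions, and 0.03 in CREBBP-KO against WT, beside 0.02. All regions that passed lay in the TRAF1 window. EP300-KO enters both comparisons, so their calls are not independent of each other.

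**Figure D2:**
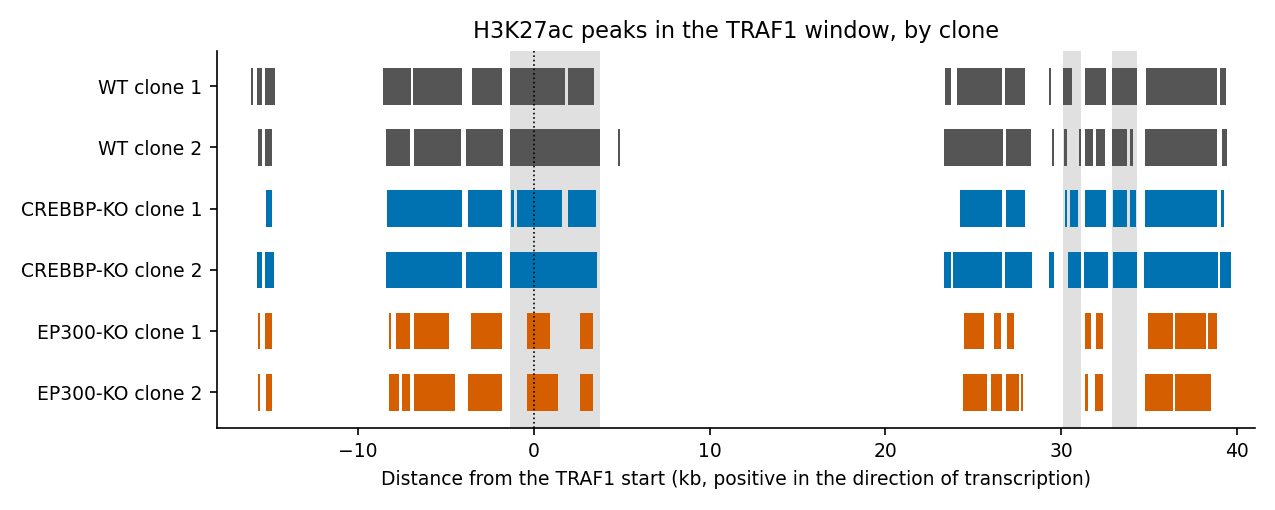
Peaks of each clone in the TRAF1 window against the distance from the TRAF1 start in kb (dotted line); each bar is 1 peak and the grey bands are the 3 regions that passed the test in EP300-KO against WT. The 2 bands past the gene, at 30.1 to 31.1 and 32.9 to 34.3 kb, are empty in both EP300-KO clones and hold peaks in the other 4.

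The region that passed most clearly lies past the end of TRAF1. It spans chr9:123657167-123658604 (hg19), 32.9 to 34.3 kb from the TRAF1 start and outside the gene. Which gene it belongs to was not tested, and it is counted at TRAF1 only by the window. The WT clones had 1382 and 1005 covered bases there, those of CREBBP-KO 1112 and 1395, and those of EP300-KO 0 and 0. The log2 difference of EP300-KO from WT was -3.48 (SE 0.14, limma adjusted p = 0.00091). CREBBP-KO exceeded EP300-KO by 3.59 (SE 0.14, adjusted p = 0.00085) and differed from WT by 0.11 (SE 0.14, adjusted p = 0.91). Both EP300-KO clones had 0 bases and so added almost no spread to the fit, and the SE and adjusted p can be too small. With no bases in EP300-KO, the size of the difference depends on the pseudocount and is no fold change, and it ran from -6.67 to -1.03 over 15 alternatives, with an adjusted p of at most 0.015.

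A shorter region closer to the gene but outside it, chr9:123660367-123661428, was also empty in EP300-KO. Its gene was not tested either. The WT clones had 528 and 251 covered bases, those of CREBBP-KO 560 and 776, and those of EP300-KO 0 and 0. All 4 clones with EP300 were above 0, with both CREBBP-KO clones the highest. EP300-KO was lower than WT by a log2 difference of -2.03 (SE 0.27, limma adjusted p = 0.023), and CREBBP-KO exceeded EP300-KO by 2.76 (SE 0.27, adjusted p = 0.0088). CREBBP-KO was 0.73 above WT (SE 0.27, adjusted p = 0.57), which did not pass. As in the region before, the empty EP300-KO clones added almost no spread, so the SE and adjusted p can be too small. Here too the size in EP300-KO is set by the pseudocount, from -5.00 with 10 bases to -0.37 with 1000 bases, where the call was lost (adjusted p = 0.080). It was also lost with lists of equal length (-1.14, adjusted p = 0.46) and with quantile normalization (-0.53, adjusted p = 0.48). Against CREBBP-KO, equal lists and quantile normalization gave adjusted p = 0.16 and 0.12, and the call was lost as well. The call against WT was lost without either CREBBP-KO clone (adjusted p = 0.067 and 0.070) and without either EP300-KO clone (0.088 and 0.067). The call against CREBBP-KO was lost without either CREBBP-KO clone (0.060 and 0.068).

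The remaining call was the region over the TRAF1 start, chr9:123687719-123692864, the widest of all 37. It held 4586 and 5146 covered bases in WT, 4308 and 4964 in CREBBP-KO, and 2057 and 2421 in EP300-KO. The EP300-KO clones were again apart from the other 4. The log2 difference was -0.89 in EP300-KO against WT (SE 0.14, limma adjusted p = 0.033) and -0.03 in CREBBP-KO against WT (SE 0.14, adjusted p = 0.98). CREBBP-KO exceeded EP300-KO by 0.85 (SE 0.14, adjusted p = 0.035). The call against WT was lost when any 1 of the 6 clones was left out, with an adjusted p of 0.057 to 0.15 and the difference between -1.01 and -0.76. The call against CREBBP-KO was lost without either CREBBP-KO clone (0.14 and 0.12) and without either EP300-KO clone (0.15 and 0.067).

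The peaks at the TRAF1 start show which part of that region went uncovered. In WT clone 2 and CREBBP-KO clone 2 a single peak ran from -1.364 to 3.781 kb and from -1.357 to 3.606 kb. In WT clone 1 the cover broke between 1.78 and 1.974 kb, and in CREBBP-KO clone 1 between -1.105 and -0.963 kb and between 1.611 and 1.968 kb. In EP300-KO a peak from -0.372 to 0.955 kb in clone 1 and from -0.363 to 1.368 kb in clone 2 kept the start itself covered. A second EP300-KO peak began at 2.627 and 2.659 kb, so a longer stretch before the start and one inside the gene were bare in both clones. The TRAF1 start from which distances are counted thus held a peak in all 6 clones. RefSeq lists 3 starts for TRAF1. Whether the bare stretch inside the gene holds another of them was not examined.

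Of the other 7 TRAF1 regions tested, 0 passed. The region from 31.3 to 32.7 kb, between the 2 that were empty in EP300-KO, had 1201 and 1025 covered bases in WT, 1155 and 1351 in CREBBP-KO and 773 and 650 in EP300-KO. CREBBP-KO exceeded EP300-KO there by 0.57 (SE 0.12, limma adjusted p = 0.069), which passed with a pseudocount of 1000 bases (adjusted p = 0.047) and with a trended prior (adjusted p = 0.050 as rounded). The farthest from the start, from 34.7 to 38.9 kb, had 4047 and 4097 covered bases in WT, 4090 and 4191 in CREBBP-KO and 3649 and 3620 in EP300-KO. Its centred difference in EP300-KO was 0.04 (SE 0.12, limma adjusted p = 0.83). The region from 23.3 to 26.7 kb, over the end of the gene, had 2887 and 3354 in WT, 2391 and 3198 in CREBBP-KO and 1483 and 1984 in EP300-KO. There the difference was -0.62 (SE 0.19, adjusted p = 0.15). Upstream, the region from -8.57 to -4.06 kb had 4390 and 3971 in WT, 4251 and 4317 in CREBBP-KO and 2878 and 3334 in EP300-KO, with a difference of -0.22 (SE 0.13, adjusted p = 0.36). In covered bases the EP300-KO clones lay below the other 4 in each of these regions, and also in the region from 26.8 to 28.3 kb, without a call against WT. The share of all regions with that order was not counted, so it cannot be read as particular to TRAF1. The EP300-KO clones did not lie below the others in the region from -3.87 to -1.76 kb. That region had 1728 and 2082 in WT, 1971 and 2097 in CREBBP-KO and 1739 and 1907 in EP300-KO. Its difference in EP300-KO was 0.15 (SE 0.15, limma adjusted p = 0.56). The region from -15.3 to -14.7 kb also overlapped, with 573 and 438 in WT, 350 and 530 in CREBBP-KO and 360 and 340 in EP300-KO.

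**Figure D3:**
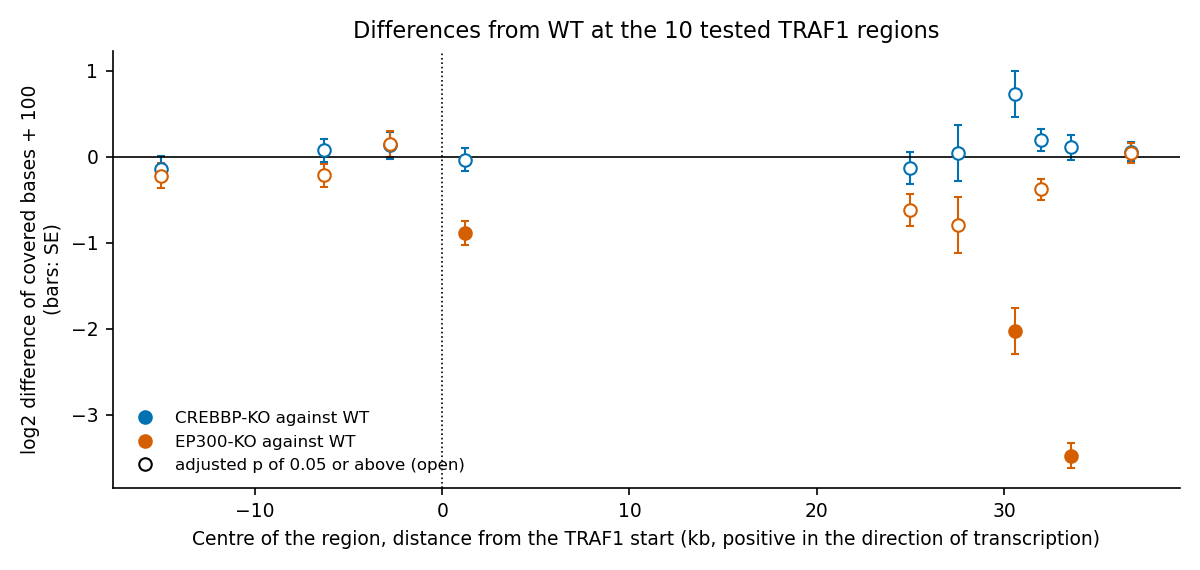
Log2 difference from WT (bars are SE) of the 10 tested TRAF1 regions against the distance of their centre from the TRAF1 start in kb; filled points passed an adjusted p of 0.05. The filled points are EP300-KO values of -0.89, -2.03 and -3.48, while no CREBBP-KO value passed.

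Summed over blocks, the downstream stretch from 23.3 to 39.6 kb held 11609 and 11642 covered bases in WT, 10565 and 13335 in CREBBP-KO and 6321 and 7084 in EP300-KO. The block around the start, from -8.57 to 4.9 kb, held 10704 and 11324 in WT, 10530 and 11378 in CREBBP-KO and 6674 and 7662 in EP300-KO. Both blocks were thus lower in EP300-KO, and neither separated CREBBP-KO from WT. Far upstream, from -16.1 to -14.7 kb, a small block held 1005 and 699 in WT, 350 and 788 in CREBBP-KO and 490 and 496 in EP300-KO. There the knock-outs overlapped. The blocks were drawn after the values were seen and carry no test. Large enhancer domains are often defined by joining peaks less than 12.5 kb apart, and here a joined stretch with 10 kb or more of covered sequence was counted as wide. By that rule 2 wide domains touched the TRAF1 window in each WT and CREBBP-KO clone and 1 in each EP300-KO clone. The windows of the other 6 genes touched none. A domain was counted with its peaks beyond the window edge, so its size is not that of the sequence inside the window. The widest domain had 10296 and 11208 covered bases in the EP300-KO clones, little above the limit.

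Counted base by base, TRAF1 differed between the knock-outs in how much WT sequence went uncovered. Of 21386 bases covered in both WT clones, 26.6% were uncovered in both EP300-KO clones and 0.636% in both CREBBP-KO clones. Over the whole series these shares were 14.9% and 3.84%. At BIRC3 they were 27.7% and 28.9%, and at TNFAIP3 31.5% and 41.4%. NFKB2 had 14.4% and 0%, ICAM1 6.43% and 2.58%, CD40 5.51% and 3.93%, and NFKBIA 3% and 0%. The genes therefore fell on both sides of the series-wide EP300-KO share, with TRAF1, BIRC3 and TNFAIP3 above it. This count was added after the values were seen and has no test.

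BIRC3 lay below WT in both knock-outs. The WT clones had 2970 and 4410 covered bases, those of CREBBP-KO 1439 and 2078, and those of EP300-KO 1736 and 2021. The knock-out clones did not overlap WT, and the knock-outs overlapped each other. The log2 difference was -0.94 in CREBBP-KO (SE 0.26, limma adjusted p = 0.33) and -0.71 in EP300-KO (SE 0.26, adjusted p = 0.19), so neither passed. The 2 comparisons share the WT clones, which were themselves far apart. Without WT clone 2 the differences were -0.60 in CREBBP-KO and -0.36 in EP300-KO, and without WT clone 1 they were -1.29 and -1.06.

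The BIRC3 window also holds the start of BIRC2, its neighbour and paralog, and the difference did not extend to it. Over the regions at the BIRC2 start the WT clones had 1491 and 1251 covered bases, those of CREBBP-KO 1101 and 1366, and those of EP300-KO 1498 and 1454, which overlap. Without them, BIRC3 held 1479 and 3159 in WT, 338 and 712 in CREBBP-KO and 238 and 567 in EP300-KO. WT clone 2 alone had 4 small regions inside the gene, from 1.29 to 4.79 kb past the start. The widest region outside BIRC2 lies upstream, chr11:102177084-102178355, from -11.1 to -9.85 kb. It had 780 and 1272 covered bases in WT, 0 and 237 in CREBBP-KO and 238 and 111 in EP300-KO. Its log2 difference was -2.54 in CREBBP-KO (SE 0.60, limma adjusted p = 0.35) and -1.84 in EP300-KO (SE 0.60, adjusted p = 0.17). With every list shortened to the 35054 peaks of the shortest, the CREBBP-KO difference was -3.43 (SE 0.35, adjusted p = 0.048) and passed.

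At the BIRC3 start itself the mark was thin. The region from 0.01 to 0.846 kb had 492 and 799 covered bases in WT, 338 and 475 in CREBBP-KO and 0 and 287 in EP300-KO, so both genotypes lay below WT. The small region before the start, chr11:102187756-102187962, had 207 and 167 in WT, 0 and 0 in CREBBP-KO and 0 and 169 in EP300-KO. A region was counted as lost if the WT clones both had a peak in it and the knock-out clones both had none, and as gained in the reverse case, which is no test. This BIRC3 region was the 1 of 37 lost in CREBBP-KO, where 3.05% of all regions were lost. Of the 37, 0 were gained in CREBBP-KO, where 1.25% of all were. Lost and gained together numbered 2 without CREBBP-KO clone 1, 5 without CREBBP-KO clone 2, 6 without WT clone 1 and 2 without WT clone 2. Leaving out a clone loosens the rule for every region, and the share of all regions was not counted in these settings.

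In EP300-KO, 6 of the 37 regions were lost, where 9.15% of all regions were, and 0 were gained, where 1.74% were. TRAF1 held 4 of the 6, with the regions at 39 to 39.6 kb and 29.3 to 29.6 kb beside the pair described above. The fifth was the region before the TNFAIP3 start and the sixth a small region inside NFKB2. Without WT clone 1 the count was 11. It was 1 with lists of equal length and 1 when peaks were joined across gaps of up to 500 bases. Between the knock-outs, 4 of the 37 had peaks in CREBBP-KO clones 1 and 2 and none in EP300-KO, where 6.5% of all did. These were 3 at TRAF1 and the 1 inside NFKB2. In the reverse direction the count was 0, where 2.79% of all were. Without CREBBP-KO clone 1 the count in the first direction was 7. The shares of all regions are for the main setting only, so the counts in other settings cannot be set against them. Leaving out a clone loosens the rule for every region.

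TNFAIP3 had the least covered sequence of the 7. The WT clones had 575 and 355 covered bases, those of CREBBP-KO 183 and 325, and those of EP300-KO 223 and 242. Both WT clones were above all 4 knock-out clones, by as little as 355 against 325. The region before the start, chr6:138187759-138188005, had 247 and 101 in WT, 0 and 121 in CREBBP-KO and 0 and 0 in EP300-KO. The region after the start, chr6:138188370-138188697, was present in all 6 clones with 328 and 254, 183 and 204, and 223 and 242 covered bases in the same order. TNFAIP3 had too few covered bases for the test.

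**Figure D4:**
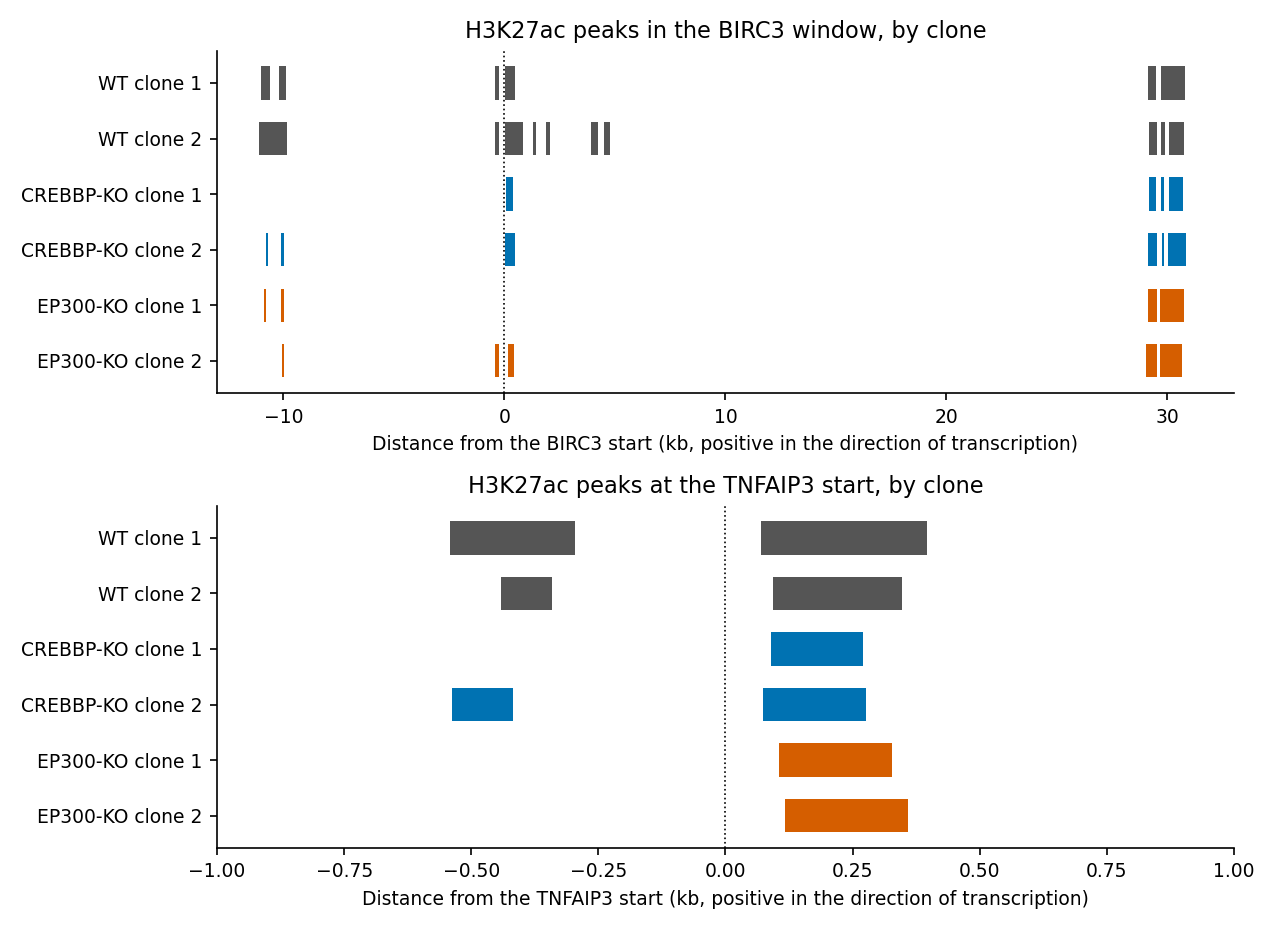
Peaks of each clone against the distance in kb from the BIRC3 start (upper panel) and the TNFAIP3 start (lower panel), with each start as a dotted line; each bar is 1 peak. The BIRC3 peaks near -10 kb are narrower in the knock-out clones or missing (CREBBP-KO clone 1), the BIRC2 peaks near 30 kb are present in all 6, and the TNFAIP3 peak before the start is missing in both EP300-KO clones and CREBBP-KO clone 1.

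NFKB2 was variable among the CREBBP-KO clones. It had 1148 and 1322 covered bases in WT, 783 and 1424 in CREBBP-KO, and 727 and 943 in EP300-KO. The CREBBP-KO clones spanned the WT clones, and the EP300-KO clones lay below WT. The log2 difference in EP300-KO was -0.31 (SE 0.24, limma adjusted p = 0.46). It was -0.15 without EP300-KO clone 1, -0.15 without WT clone 2, -0.48 without EP300-KO clone 2 and -0.48 without WT clone 1. The region over the start, chr10:104153759-104154646, had 686 and 841 in WT, 510 and 860 in CREBBP-KO and 727 and 686 in EP300-KO, which overlap. The lower EP300-KO total came from the regions inside the gene. One, from 0.739 to 1.13 kb, had 306 and 371 in WT, 135 and 381 in CREBBP-KO and 0 and 257 in EP300-KO. The other, from 4.89 to 5.09 kb, had 156 and 110, 138 and 183, and 0 and 0.

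NFKBIA, the inhibitor that NF-kB induces, kept its mark in all 6 clones. It had 890 and 925 covered bases in WT, 868 and 1318 in CREBBP-KO, and 882 and 853 in EP300-KO. CREBBP-KO clone 2 was the highest and the other 5 lay within 853 to 925. The log2 difference was 0.15 in EP300-KO (SE 0.14, limma adjusted p = 0.54) and 0.30 in CREBBP-KO (SE 0.14, adjusted p = 0.51). In EP300-KO the sign turns to -0.06 without centring. The mark lay in regions of at most 466 bases around the start, and 3 of the 4 regions were present in all 6 clones.

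CD40, the receptor, had 3255 and 2924 covered bases in WT, 2874 and 3044 in CREBBP-KO, and 2748 and 2902 in EP300-KO. The lowest clone had 2748 and the highest 3255, and the EP300-KO mean was 91.4% of the WT mean. The log2 difference was 0.08 in EP300-KO (SE 0.12, limma adjusted p = 0.69) and 0.02 in CREBBP-KO (SE 0.12, adjusted p = 0.96). Without centring they turn to -0.12 and -0.06. The region over the CD40 start, chr20:44746795-44747601, had 807 and 700 in WT, 749 and 743 in CREBBP-KO and 755 and 735 in EP300-KO. The larger region after it, from 0.864 to 3.31 kb, had 2448 and 2224, 2125 and 2301, and 1993 and 2167. The first of these did not separate the genotypes, and the EP300-KO clones lay below WT in the second.

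ICAM1, the adhesion molecule, had 3242 and 2673 covered bases in WT, 2438 and 3136 in CREBBP-KO, and 2376 and 2542 in EP300-KO. The log2 difference was -0.04 in EP300-KO (SE 0.11, limma adjusted p = 0.82) and -0.01 in CREBBP-KO (SE 0.11, adjusted p = 0.98). The region over the start, chr19:10380412-10383005, carried most of it, with 2474 and 2031 in WT, 1961 and 2540 in CREBBP-KO and 1913 and 2073 in EP300-KO, which overlap. The window also holds the start of a neighbour, ICAM4. A second region, chr19:10399233-10400500, lies past ICAM1, outside both of these genes, and crosses the edge of the window. Other genes near this second region were not looked at. Which gene it belongs to was not tested. Over its whole length it had 1233 and 1142 in WT, 928 and 1077 in CREBBP-KO and 695 and 782 in EP300-KO. Its EP300-KO clones were below all others, with a log2 difference of -0.42 that did not pass (SE 0.10, limma adjusted p = 0.093).

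The deposited score of each peak, the authors' own value, placed these genes at different heights within each list. The best peak of CD40 scored above 88.9% to 98.5% of the peaks of its own list, and that of TRAF1 above 92.6% to 98.6%. For ICAM1 the range was 90.3% to 93.7%. The best peak of TNFAIP3 scored above only 7.83% to 51% of its list. For TRAF1 the values were 97.6% and 96.8% in WT, 98.6% and 98.6% in CREBBP-KO, and 92.9% and 92.6% in EP300-KO. Ranks from lists of different length do not show a change of the score.

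Other genes of the pathway were read from a fixed list of 27, of which 26 had a usable position, 23 had a peak and 21 could be tested. In CREBBP-KO against WT, EP300-KO against WT and CREBBP-KO against EP300-KO, 0 of the 21 passed the limma test, where 0.34%, 4.97% and 7.27% of all windows did. At an unadjusted p under 0.05 the counts were 1, 5 and 3 of the 21, beside 1241, 2609 and 2914 of all 10874 windows. The median log2 difference of the 21 was 0.06 in EP300-KO against WT, beside 0.03 over all windows, and -0.07 in CREBBP-KO against WT, beside 0.02. By role, the 9 adaptors and kinases of CD40 and NF-kB signalling had medians of -0.15 in EP300-KO and -0.24 in CREBBP-KO. The 4 NF-kB subunits had medians of 0.25 and 0.15, the 3 tested inhibitors 0.06 and -0.15, and the 5 tested response genes 0.08 and -0.05. CYLD, CD80 and CCL22 had no peak in any clone.

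For each of the 7 genes but TNFAIP3, which was not tested, the pathway gene with the most similar profile over the 6 clones was found. The measure was the root mean square difference of centred log2 values, after removing the mean of each. For TRAF1 it was RELB, which encodes an NF-kB subunit of the non-canonical branch, at 0.0895. RELB had 8494 and 8946 covered bases in WT, 7584 and 11005 in CREBBP-KO, and 5051 and 5618 in EP300-KO, and as at TRAF1 the EP300-KO clones lay below the other 4. Its log2 difference in EP300-KO was -0.49 (SE 0.14, limma adjusted p = 0.13), short of the threshold. The nearest to NFKB2 was also RELB, at 0.207, that to NFKBIA was REL at 0.106, and that to BIRC3 was TRAF5 at 0.338. CD40 and ICAM1, which varied little, were both nearest to TNIP1, at 0.0448 and 0.102. By the same measure ICAM1 departed from its own mean by only 0.0497, so TNIP1 was farther from it than a flat profile. NFKB2 departed from its mean by 0.233, little more than its distance to RELB. These distances describe 6 clones and carry no test.

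**Figure D5:**
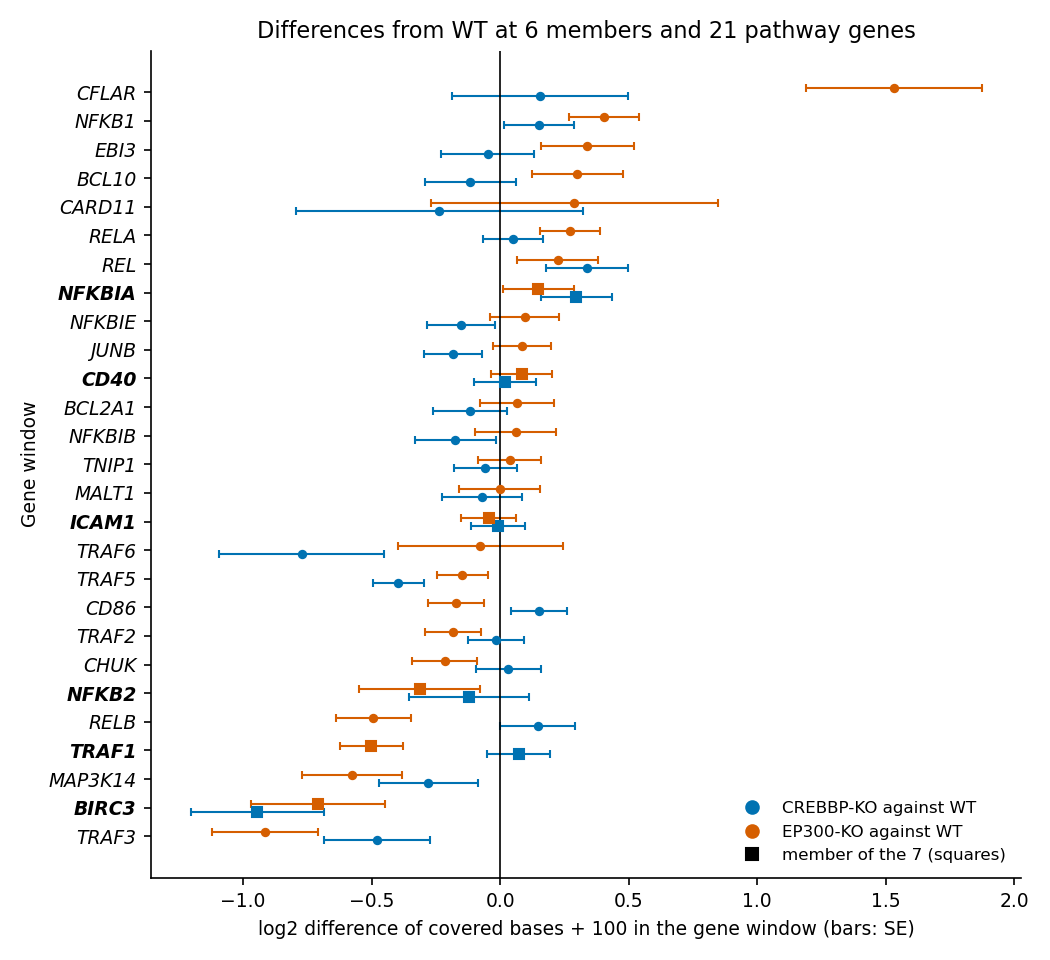
Log2 difference of covered bases + 100 from WT in the windows of 6 of the 7 genes (squares, bold names) and 21 other pathway genes (circles), with SE as bars; genes are ordered by the EP300-KO value. None passed an adjusted p of 0.05. TRAF1 lies at -0.50 in EP300-KO and 0.07 in CREBBP-KO, while BIRC3 lies at -0.71 and -0.94. The lowest and the highest EP300-KO values, -0.91 and 1.53, are those of other pathway genes outside the 7.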

How the data were processed

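Peak lists of 6 H3K27ac libraries were used, and the 6 inputs entered only through them. The labels' protocols describe paired-end sequencing with no depth per library, and the submitters' processing notes name CASAVA 1.8, Bowtie2 2.1.0, SAMtools 0.1.19 and hg19. Each list compares 1 library with its own input, per the file headers. A peak caller was not given in the sources used here. Each peak has a deposited score, which runs from 14 or 15 to 170, is the authors' own value with no stated meaning, and served to rank peaks within a list. The deposited starts and ends are positions per the file headers, and starts were read as counted from 0, which leaves 1 base of doubt.

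Peaks sharing at least 1 base were joined into regions. Covered bases per region and per window (the 7 gene windows, the pathway and marker windows and tiles of 50 kb elsewhere) were put on the scale log2(covered bases + 100) and fitted in R 4.3.3 with limma 3.58.1. This scale understates changes of short regions. The spread was estimated over all 6 clones together, and the fit was checked on simulated data. The simulated spread was equal in all regions and no changed region was emptied, so it does not cover regions empty in EP300-KO. Adjusted p-values are Benjamini-Hochberg values over all features tested. The clones are separate single-cell lines, and the spread in each test is that between clones, while no interval covers sequencing depth.

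The members and the gene lists were chosen with earlier results of these data known. All 7 genes are named, with each region that was called, lost or gained, that lies over a gene start or that is the widest, and pathway genes are named where called or where nearest in profile to one of the 7. Other pathway genes are counted, except those with no peak, which were named after their values were seen, as were further TRAF1 and NFKB2 regions. Gene starts and pathway positions on hg19 (gene span with 10 kb on either side) are general knowledge. They were checked for chromosome and span against the RefSeq table of GRCh38, and for strand in the 39 of 49 positions where that table gives it. For CD40 and RELB it does not, and 1 position was dropped. A further marker on the fixed list is not reported here.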

Additional observations from a re-analysis of the deposited data

How the results depend on the processing

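Lists of peaks hold no depth, 2 clones stand for each genotype, and the TNFAIP3 and NFKBIA regions were too short to test, so small differences there were not detectable. No paired analysis was possible because replicate numbers only name the clones. With a trended prior variance, 2 of 19860 regions passed in CREBBP-KO against WT in place of 58. Over the settings tried, the numbers of regions of the genome called ran from 2 to 420 in that comparison, from 660 to 2574 in EP300-KO against WT and from 747 to 2526 in CREBBP-KO against EP300-KO. For windows the ranges were 0 to 130, 120 to 1037 and 115 to 1389. Of the regions called in EP300-KO against WT, 1057 were lower and 213 higher. Quantile normalization changed this to 601 and 273. In CREBBP-KO against EP300-KO the split was 314 lower and 1182 higher, and 311 and 603 with quantile normalization. In CREBBP-KO against WT it was 36 and 22, with 33 and 11 without centring, 58 and 75 with lists of equal length, 75 and 217 without WT clone 2, 5 and 30 without WT clone 1, and 254 and 17 without CREBBP-KO clone 2.

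The region at 32.9 to 34.3 kb past the TRAF1 start passed in all 15 alternatives of both comparisons with EP300-KO. The region at 30.1 to 31.1 kb passed in 6 of 13 against WT and in 10 of 14 against CREBBP-KO, and the region over the TRAF1 start in 7 of 15 and 10 of 15. Of the 17 tested regions, 1 passed in CREBBP-KO against WT with lists of equal length (the upstream BIRC3 region), and 1 in EP300-KO against WT with only the 4 clones compared. Leaving out 1 clone at a time left 1 to 2 such regions in EP300-KO against WT and 1 to 3 in CREBBP-KO against EP300-KO. Of the 6 gene windows, 1 passed in EP300-KO against WT with a pseudocount of 1000 bases, and 1 in CREBBP-KO against EP300-KO with that pseudocount or a filter of 1000 bases. In each case it was TRAF1. Without the filter, the region inside NFKB2 from 4.89 to 5.09 kb also passed in EP300-KO against WT (limma adjusted p = 0.043).

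Regions lost or gained in CREBBP-KO numbered 3 when at least 50% of a region had to be covered, 3 with lists of equal length and 0 when peaks were joined across gaps of up to 500 bases, and leaving out 1 clone gave 2 to 6. In EP300-KO they numbered 1 with equal lists and 1 with joined gaps, and leaving out 1 clone gave 6 to 11. Between the knock-outs the count was 1 with joined gaps and 5 to 7 with 1 clone left out. No share of all regions was counted in these settings, so the counts do not show more or less loss at these genes.

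Some differences near 0 changed sign. Without centring, CREBBP-KO against WT went to -0.059 at CD40 and -0.0065 at TRAF1, EP300-KO against WT to -0.12 at CD40 and -0.058 at NFKBIA, and CREBBP-KO against EP300-KO to 0.065 at CD40. With equal lists CD40 went to -0.022 in CREBBP-KO against WT. With only peaks wholly inside the window, ICAM1 went to 0.060 in CREBBP-KO and 0.15 in EP300-KO against WT, and to -0.086 between the knock-outs. Leaving out 1 clone gave, in CREBBP-KO against WT, -0.092 to 0.13 at CD40, -0.073 to 0.054 at ICAM1, -0.36 to 0.12 at NFKB2 and -0.011 to 0.15 at TRAF1. In EP300-KO against WT it gave -0.11 to 0.018 at ICAM1. In CREBBP-KO against EP300-KO it gave -0.17 to 0.047 at CD40, -0.012 to 0.082 at ICAM1 and -0.050 to 0.44 at NFKB2. Beyond the clones left out and the peaks dropped, the cause was not tested.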
